A study of Mus musculus with 19 samples.

Results

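The high mobility group (HMG) proteins are small, abundant, non-histone proteins of chromatin, and 8 of their genes were followed across newborn and adult suppressor cells of the mouse spleen: Hmgb1, Hmgb2, Hmgb3, Hmgn1, Hmgn2, Hmgn3, Hmgn5 and Hmga1. They were found as the rows of the count table whose symbol equals one of these names, 8 of 38887 genes. They fall into families by role. HMGB proteins bend DNA with HMG boxes and, once released from cells, act as alarm signals. HMGN proteins bind the nucleosome itself and compete with linker histone H1, which loosens compact chromatin. HMGA proteins use AT-hooks to bind the minor groove of AT-rich DNA. Several HMG genes are known for high expression in dividing and immature cells and for lower expression as blood cells mature.

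Myeloid-derived suppressor cells (MDSC) are immature-looking myeloid cells that can restrain T cells, in a neutrophil-like form (PMN-MDSC) and a monocyte-like form (M-MDSC). RNA from spleen MDSC was sequenced in 19 libraries: 5 of newborn PMN-MDSC, 6 of adult PMN-MDSC, 5 of newborn M-MDSC and 3 of adult M-MDSC. Newborns were taken at 7 days of age and adults at 6 to 8 weeks. The labels name no treatment or allele, and the strain is not given in the sources used here. The labels describe more than one isolation by surface markers, with CD11b beads and a sort for both cell types and also with Ly6G beads for PMN-MDSC and a sort on another instrument for M-MDSC. They do not say which libraries came from which, so isolation may differ between the libraries compared. The labels name no test of suppression. The labels do not say whether each library is a different animal; p-values therefore speak only of the variation among libraries, some of which may be technical.

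Batch 1 held 10 shallow libraries (827744 to 2965896 counts) and batch 2 held 9 deep ones (14026193 to 45135933 counts), with both batches in every group. A count of 0 in a library allows up to 3 counts, a level of 0.990 to 3.29 CPM (counts scaled to a common library size) for batch 1 and, with more depth, of 0.0601 to 0.197 CPM for batch 2, for counting error only. Newborn M-MDSC replicate 77 and adult M-MDSC replicate 28 had counts for only 11823 and 11549 genes, against 13169 to 19263 in the other libraries. In batch 2, replicate 28 was the only adult M-MDSC library and replicate 77 was 1 of 2 newborn M-MDSC libraries. The batch 2 values of M-MDSC below rest on them, with no spread among adult libraries. Each batch 1 PMN-MDSC library resembled a batch 2 library of its group: after subtracting each group's batch mean, log2 CPM across genes correlated at 0.44 to 0.69 in the 5 closest pairs and at -0.51 to 0.20 in the 10 others. Genes are not independent, and the pairs were picked by closeness. Subtracting means also forces negative values among the others, exactly mirrored between the 2 newborn batch 1 libraries. If paired libraries nevertheless share a source, the PMN-MDSC errors are too small. Values without the batch 1 PMN-MDSC libraries are therefore given where they change a call. Ly6g, the neutrophil sort marker, was at 176 to 245 CPM in newborn and 12.1 to 24.7 CPM in adult PMN-MDSC and at most 1.85 CPM in M-MDSC. Summed neutrophil markers were at 83063 to 90774 CPM in newborn and 7978 to 8828 CPM in adult PMN-MDSC, and at 2560 to 12762 CPM in newborn and 601 to 1003 CPM in adult M-MDSC. They did not all move together: in PMN-MDSC 6 of the 8 were called higher and 1 lower in newborns. Csf3r averaged 756 CPM in newborn and 2100 CPM in adult PMN-MDSC. In M-MDSC 6 of the 8 neutrophil markers were called higher in newborns, such as S100a8 with a mean of 1709 CPM in newborn and 92.0 CPM in adult M-MDSC, while Ly6g was not called. Their part in the M-MDSC values below was not tested. Summed monocyte markers were at 9370 to 12589 CPM in newborn and 6986 to 7605 CPM in adult M-MDSC, against 898 to 1369 CPM in PMN-MDSC. In M-MDSC 1 of the 7 was called higher and 1 lower in newborns. Fn1 averaged 7262 CPM in newborn and 2534 CPM in adult M-MDSC, and Csf1r 954 CPM in newborn and 2290 CPM in adult M-MDSC. In PMN-MDSC 3 of the 7 were called higher and 3 lower in newborns. Ly6c2 averaged 442 CPM in newborn and 40.4 CPM in adult PMN-MDSC, and Irf8 50.7 and 259 CPM. Itgam, the gene of CD11b, averaged 3746 CPM in newborn and 582 CPM in adult PMN-MDSC and was called higher. In M-MDSC Itgam averaged 767 and 693 CPM and was not called. The part of these differences in the values below was not tested. The Y-linked Kdm5d had counts in every newborn library and 0 in the adult ones. Xist, made from the inactive X of female cells, was at 165 to 484 CPM in newborn PMN-MDSC. In newborn M-MDSC it was at 63.1 to 525 CPM. Newborn libraries thus held marks of both sexes and adult ones no Kdm5d, so the effect of age cannot be told apart from that of sex.

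Markers of other cells also moved with age. All 6 B cell markers were called lower in newborns in both cell types, with summed levels of 273 to 426 CPM in newborn and 1908 to 3104 CPM in adult PMN-MDSC, and of 57.1 to 118 CPM in newborn and 406 to 1121 CPM in adult M-MDSC. All 8 erythroid markers were called higher in newborn PMN-MDSC, where they summed to 2942 to 5437 CPM, against 95.4 to 427 CPM in adult PMN-MDSC. In M-MDSC the erythroid sums overlapped, at 0.985 to 2837 CPM in newborns and 20.3 to 499.7 CPM in adults. Stem and progenitor markers summed to 79.3 to 109 CPM in newborn and 29.2 to 39.6 CPM in adult PMN-MDSC, and to 95.7 to 170 CPM in newborn and 32.9 to 82.3 CPM in adult M-MDSC, with 2 and 3 of their 4 genes called higher in newborns. Flt3 pointed the other way and was not called. It averaged 3.41 CPM in newborn and 13.8 CPM in adult PMN-MDSC, and 9.68 CPM in newborn and 35.0 CPM in adult M-MDSC. Eosinophil markers summed to 209 to 632 CPM in newborn and 11.3 to 21.0 CPM in adult PMN-MDSC, and to 34.9 to 170 CPM in newborn and 0.548 to 6.28 CPM in adult M-MDSC. In each cell type 3 of the 4 were called higher in newborns, and their defining gene Epx was at 0 in every adult library. Siglecf was not called, and averaged 11.9 CPM in newborn and 14.3 CPM in adult PMN-MDSC. T cell markers summed to 22.9 to 41.0 CPM in newborn and 36.2 to 74.0 CPM in adult PMN-MDSC, and to 3.78 to 22.4 CPM in newborn and 51.0 to 182 CPM in adult M-MDSC, with 2 and 4 of 4 called lower in newborns. Of 3 NK cell markers, Klrb1c was called lower in newborn M-MDSC, and the sums overlapped, at 14.3 to 42.2 CPM in newborns and 11.5 to 41.9 CPM in adults. In PMN-MDSC 1 of 3 was called lower in newborns, with sums of 3.46 to 5.45 CPM in newborns and 5.11 to 15.6 CPM in adults. Dendritic cell markers summed to 16.4 to 19.7 CPM in newborn and 29.8 to 46.0 CPM in adult PMN-MDSC. In M-MDSC they summed to 9.66 to 56.6 CPM in newborns and 52.1 to 64.8 CPM in adults, with 0 of 4 called in either cell type. The part of these cells in the values below was not tested, and in bulk RNA fewer cells of a type and less RNA per cell cannot be told apart.

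The promoters of the members that moved apart from a paralog (a sister gene of the same family) are shown because the results turn on those pairs. Each window holds 250 bases before and 30 bases after the outermost start site in RefSeq on build GRCm38.p6, 5′ to 3′, with CCAAT in capitals. CCAAT is the box bound by the factor NF-Y, common in promoters of cell division genes. Hmgb2 lies at chr8:57511593-57511872 on the plus strand, Hmgb3 at chrX:71555667-71555946 on the plus strand and Hmgb1 at chr5:149053028-149053307 on the minus strand. Hmgn2 lies at chr4:133967962-133968241 on the minus strand and Hmgn1 at chr16:96127696-96127975 on the minus strand.
Hmgb2: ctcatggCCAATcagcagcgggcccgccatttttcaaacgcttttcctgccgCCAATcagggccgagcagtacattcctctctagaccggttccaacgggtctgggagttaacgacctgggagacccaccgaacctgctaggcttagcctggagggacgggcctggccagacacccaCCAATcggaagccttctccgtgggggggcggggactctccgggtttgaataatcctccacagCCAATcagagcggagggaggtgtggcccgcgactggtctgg
Hmgb3: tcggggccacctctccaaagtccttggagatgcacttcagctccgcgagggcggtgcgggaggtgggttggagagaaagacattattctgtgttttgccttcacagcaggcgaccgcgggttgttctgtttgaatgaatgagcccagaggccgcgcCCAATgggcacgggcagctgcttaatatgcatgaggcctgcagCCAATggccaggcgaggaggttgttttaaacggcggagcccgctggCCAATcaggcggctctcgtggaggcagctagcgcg
Hmgb1: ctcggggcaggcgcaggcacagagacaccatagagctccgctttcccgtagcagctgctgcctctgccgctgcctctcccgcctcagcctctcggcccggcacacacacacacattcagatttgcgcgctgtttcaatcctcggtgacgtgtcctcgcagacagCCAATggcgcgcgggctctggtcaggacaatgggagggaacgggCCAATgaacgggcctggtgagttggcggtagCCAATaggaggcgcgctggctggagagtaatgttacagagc
Hmgn2: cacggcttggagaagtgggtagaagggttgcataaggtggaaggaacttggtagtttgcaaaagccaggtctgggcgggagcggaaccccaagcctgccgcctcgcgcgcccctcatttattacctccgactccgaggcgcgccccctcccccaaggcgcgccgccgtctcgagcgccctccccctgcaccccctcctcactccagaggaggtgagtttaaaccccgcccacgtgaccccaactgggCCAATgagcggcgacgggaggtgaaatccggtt
Hmgn1: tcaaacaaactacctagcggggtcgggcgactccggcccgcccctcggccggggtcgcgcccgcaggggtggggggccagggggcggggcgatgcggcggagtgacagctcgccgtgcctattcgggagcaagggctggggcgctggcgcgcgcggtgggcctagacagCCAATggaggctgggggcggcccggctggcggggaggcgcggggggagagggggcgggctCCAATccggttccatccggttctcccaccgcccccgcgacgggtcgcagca

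In these windows CCAAT, read on both strands, was found 4 times in Hmgb2, 3 times in Hmgb3, 3 times in Hmgb1, 2 times in Hmgn1 and 1 time in Hmgn2. Of 32851 promoter windows of the same length, 36.1% held at least 1 CCAAT, 11.1% at least 2, 3.19% at least 3 and 0.989% at least 4. The boxes nearest the start began 11 bases before it in Hmgb2 and Hmgb1, 5 in Hmgb3, 21 in Hmgn1 and 3 in Hmgn2. The Hmgn2 box therefore runs across the start site. Hmgn5 held 2, at 135 and 46 bases before the start, and the Hmga1 windows held none of these letters. The 6 letters TTTGAA, the core of the cell cycle genes homology region, were found on either strand 2 times in Hmgb2 and 1 time in Hmgb3, against at least 1 in 17.2% and at least 2 in 2.11% of all windows. The E2F-like pattern TTTNNCGC was in 4.84% of all windows and in none of the members' windows. A second Hmgb1 window from an inner start held no CCAAT. Promoter sequences were matched for 7 of the 8 genes, all but Hmgn3.

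Newborn PMN-MDSC carried far more Hmgn2 and more Hmgb2 and Hmga1 than adult PMN-MDSC, and less Hmgn1. Newborn M-MDSC carried more Hmgn2, Hmga1 and Hmgb2 than adult M-MDSC. By edgeR's quasi-likelihood test, 3 of the 7 members tested were called higher and 1 lower in newborn PMN-MDSC (adjusted p under 0.05), where 47.7% of all 12943 genes tested were called, 27.1% higher and 20.5% lower. In newborn M-MDSC 3 of 7 were called higher, against 15.9% of all genes called higher and 30.2% called in either direction. None was called lower there, none had an unadjusted p under 0.05 in that direction, and DESeq2 and limma-voom called 0 as well. The median log2 fold change of the 7 genes was 0.68 in PMN-MDSC and 1.87 in M-MDSC, against -0.05 and 0.01 over all genes tested. Hmgn3 did not pass the expression filter. Of the genes called in PMN-MDSC, 56.9% were higher in newborns, and 43.7% with upper-quartile scaling, which moved the median of all genes to -0.29.

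**Figure D1:**
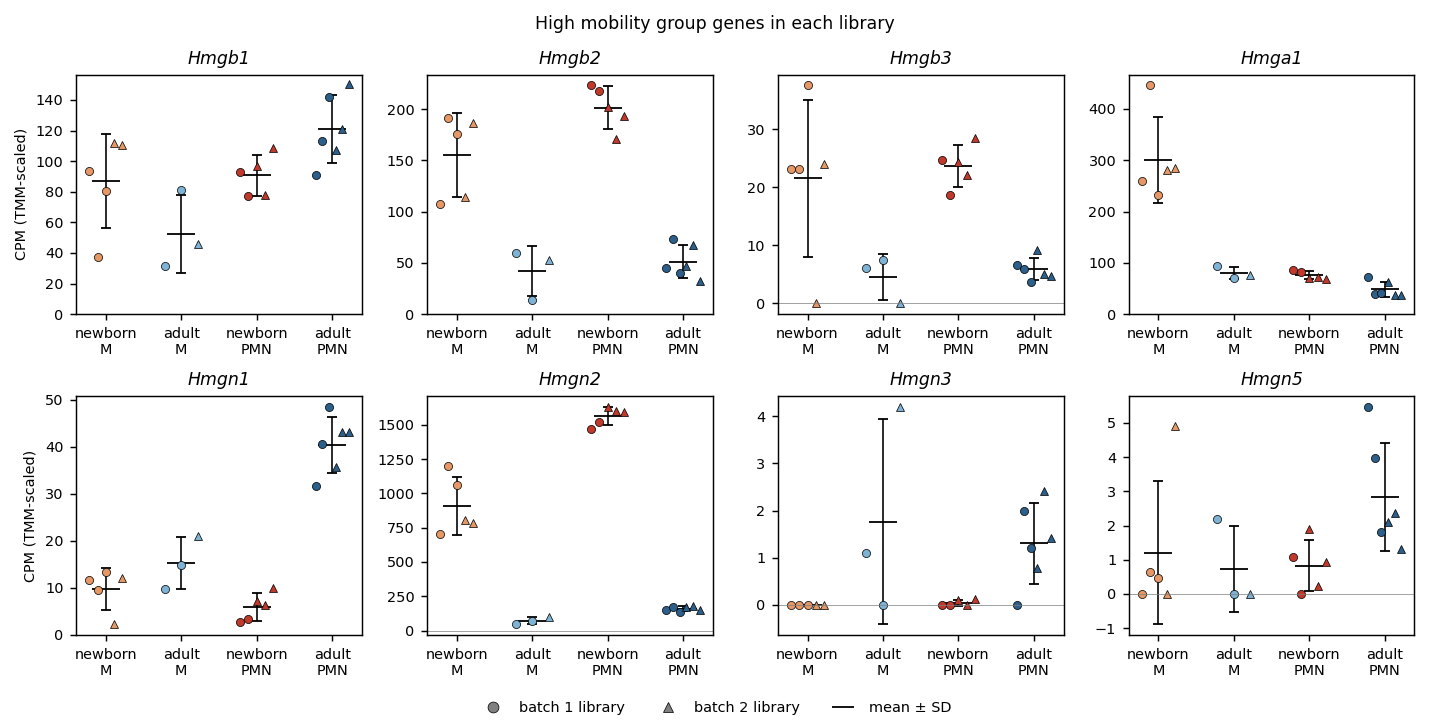
Level of each gene in CPM (vertical axis, linear) in each library of newborn and adult M-MDSC and of newborn and adult PMN-MDSC. Circles are batch 1 and triangles batch 2 libraries, and bars are the mean and SD. All newborn Hmgn2 points lie above all adult ones in both cell types, and all newborn Hmgn1 points in PMN-MDSC lie below the adult ones.

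Hmgn2, which encodes the most abundant nucleosome-binding HMGN protein in many cells, lies on chromosome 4 (133964738 to 133968650, minus strand, GENCODE M21 on GRCm38). In newborn PMN-MDSC it was at 1471, 1519, 1633, 1603 and 1590 CPM, while the 6 adult PMN-MDSC libraries ran from 133 to 178 CPM with a median of 161 CPM. The newborn values lay close together and far above the adult range. The means were 1563 ± 66.4 CPM in newborns and 159 ± 18.7 CPM in adults (SD, n = 5 and 6), a log2 fold change of 3.28 ± 0.18 (SE) with an adjusted p of 6.63e-11 in edgeR. By p it ranked 48 among the 12943 genes of that comparison. Within batches the log2 fold change was 3.28 in batch 1 and 3.34 in batch 2.

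In M-MDSC Hmgn2 moved the same way. Newborn M-MDSC had 701, 1197, 1058, 807 and 783 CPM and adult M-MDSC 46.1, 68.1 and 96.3 CPM. Every newborn value was above every adult value, and the newborn libraries spread more than in PMN-MDSC. The means were 909 ± 209 CPM in newborns and 70.1 ± 25.2 CPM in adults (SD, n = 5 and 3), a log2 fold change of 3.69 ± 0.24 (adjusted p = 8.09e-09), 4.10 in batch 1 and 3.10 in batch 2. The difference between the 2 age effects, 0.41 ± 0.26, was not called (adjusted p = 0.320). Hmgn2 kept its call in all 35 alternatives in each cell type.

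Hmgn1, the close relative of Hmgn2 that binds the same nucleosome surface, lies on chromosome 16 (96120618 to 96127729, minus strand). In newborn PMN-MDSC it was at 2.74, 3.46, 7.23, 6.40 and 9.97 CPM, and in adult PMN-MDSC at 31.8 to 48.6 CPM with a median of 41.8 CPM. The groups did not overlap. The means were 5.96 ± 2.94 CPM in newborns and 40.5 ± 5.96 CPM in adults (SD, n = 5 and 6). It fell in newborns with a log2 fold change of -2.74 ± 0.40 (edgeR, adjusted p = 1.56e-05), 6.69-fold, -3.69 in batch 1 and -2.29 in batch 2. B cell markers were lower in the same newborn libraries, and their part in this result was not tested.

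In M-MDSC the Hmgn1 groups overlapped. Newborn M-MDSC had 11.6, 9.62, 13.4, 2.25 and 12.1 CPM and adult M-MDSC 9.87, 14.9 and 21.0 CPM. The log2 fold change was -0.68 ± 0.45 (adjusted p = 0.282), so no difference was shown. The age effects themselves differed between the cell types by 2.07 ± 0.61 (M-MDSC minus PMN-MDSC, adjusted p = 0.0238). Hmgn1 and Hmga1 were the 2 of 7 members called in that test, both higher in M-MDSC, against 6.61% of all genes called higher and 18.1% in either direction. Of all genes called in it, 36.5% were higher, and 50.5% with upper-quartile scaling. That call rests on few libraries: without newborn PMN-MDSC replicate 2 or 3 the adjusted p was 0.0577 or 0.0614, without adult M-MDSC replicate 1 or 3 it was 0.0739 or 0.0529, and without newborn M-MDSC replicate 3 or 79 it was 0.0518 or 0.0548. Without the batch 1 PMN-MDSC libraries the difference was 1.59 (adjusted p = 0.239). It was 0.85 in batch 2 alone, with 1 adult M-MDSC library, against 3.58 (adjusted p = 0.00793) in batch 1.

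Hmgn3 and Hmgn5 were near the floor. Hmgn3, an HMGN gene with tissue-restricted expression, lies on chromosome 9 (83109948 to 83146685, minus strand). It had 5 counts over the newborn PMN-MDSC libraries, 3 in replicate 37 and 2 in replicate 39, and 179 counts over the adult ones. Pooled levels were 0.0724 CPM in newborn and 1.83 CPM in adult PMN-MDSC, an adult-over-newborn ratio of 25.3 with an exact 95% binomial interval of 10.7 to 78.9, which covers counting error only and not the spread between libraries (adult PMN-MDSC ran from 0 to 2.42 CPM). In newborn M-MDSC it had 0 counts in all 5 libraries, against 2, 0 and 73 counts in adult M-MDSC. The pooled newborn level was 60.2-fold lower if set at the floor of 3 counts over the group. The exact 95% binomial interval put it at least 47.8-fold lower, for counting error only. Both values rest on adult replicate 28, a library with few genes, which gave 73 of the 75 adult counts. Where another filter or set of libraries let Hmgn3 into the fit, it was called lower in newborns in 13 of 14 PMN-MDSC settings. In M-MDSC this was so in 13 of 13. The PMN-MDSC exception was the fit without the batch 1 PMN-MDSC libraries (adjusted p = 0.0657). A filter lets the gene in only through adult libraries where it is high, and every M-MDSC setting kept adult replicate 28. These tallies are therefore no measure of how firm the result is.

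Hmgn5 encodes an HMGN protein with a long acidic tail and lies on the X chromosome (109004534 to 109013404, minus strand). It was at 1.09, 0, 1.90, 0.227 and 0.928 CPM in newborn PMN-MDSC and at 1.31 to 5.48 CPM, median 2.23 CPM, in adult PMN-MDSC. In M-MDSC it was at 0, 0.641, 0.463, 0 and 4.91 CPM in newborns and 2.19, 0 and 0 CPM in adults. The groups overlapped in both cell types and neither age effect was called (adjusted p = 0.302 and 0.660). Of its 124 newborn M-MDSC counts, 122 came from replicate 79.

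The balance between the paralogs Hmgn2 and Hmgn1 set all newborn apart from all adult libraries in each cell type, though the M-MDSC difference was not called. In PMN-MDSC it restates the opposite changes of these genes given above and is not separate evidence. The ratio of their counts, which does not depend on how libraries are scaled, had a geometric mean of 283 in newborn and 3.93 in adult PMN-MDSC, and of 105 in newborn and 4.55 in adult M-MDSC. The 3 adult M-MDSC libraries gave almost the same ratio, 4.57, 4.51 and 4.59, and the adult PMN-MDSC libraries 2.72 to 4.82. The log2 difference in PMN-MDSC was 6.17 (exact two-sided permutation test, p = 0.00433, the smallest this design allows; adjusted p = 0.00866 over 6 tests), 6.90 in batch 1 and 5.66 in batch 2. Without the batch 1 PMN-MDSC libraries the groups stayed apart but the exact p was 0.1, the smallest that 3 against 3 libraries allow, so the call is lost. In M-MDSC it was 4.52 with groups apart in all 5 newborn libraries (exact p = 0.0357, the smallest possible; adjusted p = 0.0536), 4.18 in batch 1 and 5.04 in batch 2.

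**Figure D2:**
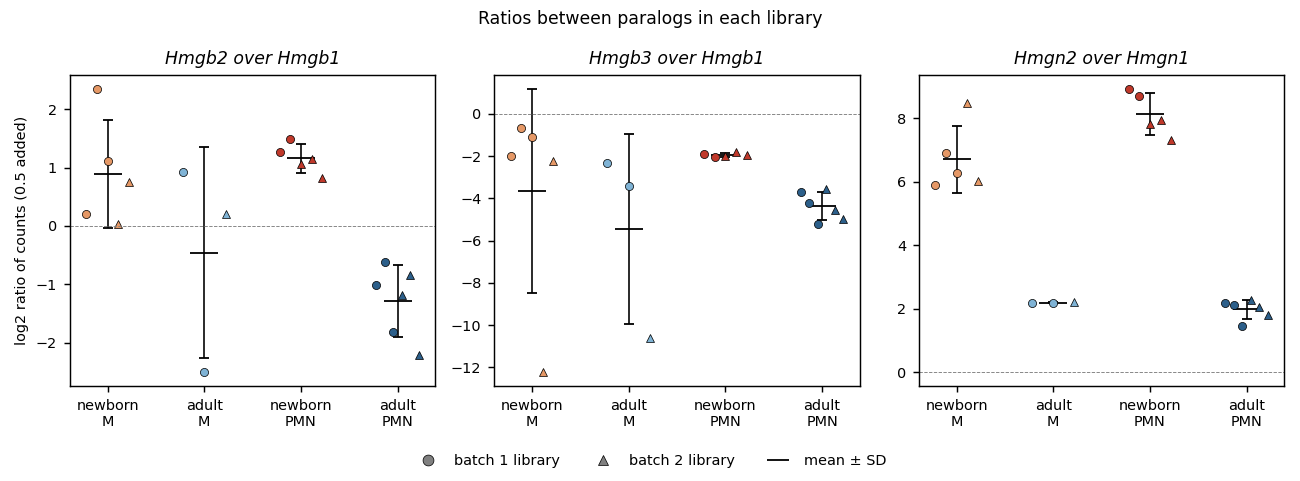
Log2 ratio of counts between paralogs (vertical axis, 0.5 added to each count) in each library of newborn and adult M-MDSC and of newborn and adult PMN-MDSC, with mean and SD. Hmgn2 over Hmgn1 separates newborn from adult libraries in both cell types, while Hmgb2 over Hmgb1 separates them in PMN-MDSC and overlaps in M-MDSC. The low Hmgb3 over Hmgb1 points in M-MDSC are the libraries with 0 Hmgb3 counts.

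Among the DNA-bending HMGB genes, Hmgb2 rose in newborns. Hmgb3 was several times higher in most newborn libraries, but neither Hmgb3 nor Hmgb1 was called in the fit of all libraries. Hmgb2, linked to dividing cells, lies on chromosome 8 (57511907 to 57515999, plus strand). It was at 223, 217, 202, 171 and 193 CPM in newborn PMN-MDSC and at 32.3 to 73.6 CPM, median 46.0 CPM, in adult PMN-MDSC. The lowest newborn library was above the highest adult one. The means were 201 ± 20.7 CPM in newborns and 50.9 ± 16.1 CPM in adults (SD, n = 5 and 6), a log2 fold change of 1.98 ± 0.29 (edgeR, adjusted p = 1.44e-05), 2.02 in each batch.

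In M-MDSC Hmgb2 was at 108, 191, 176, 114 and 187 CPM in newborns and 59.8, 14.1 and 52.4 CPM in adults. The groups were again apart. The log2 fold change was 1.87 ± 0.37 (adjusted p = 8.57e-04), 2.10 in batch 1 and 1.59 in batch 2. The age effects of the cell types differed by -0.11 ± 0.45 (adjusted p = 0.906), which does not show that they are equal. Hmgb2 was called in all 35 alternatives in each cell type.

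Hmgb1, the main alarm signal of the family and otherwise an abundant nuclear protein, lies on chromosome 5 (149046702 to 149184489, minus strand). It was at 93.0, 77.0, 97.0, 77.6 and 109 CPM in newborn PMN-MDSC and at 91.0 to 150 CPM, median 117 CPM, in adult PMN-MDSC. The ranges overlapped. The log2 fold change was -0.44 ± 0.24 (adjusted p = 0.151), and 5 of 35 alternatives called it lower in newborns: the compared groups alone (0.0136), DESeq2 size factors (0.0491), upper-quartile scaling (0.0331), DESeq2 (0.0332) and limma-voom (0.00975). The table holds 10 rows named as copies of Hmgb1, with 7.90% as many counts as the gene itself, and adding them gave -0.39 (adjusted p = 0.197).

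In M-MDSC Hmgb1 was at 93.8, 37.2, 80.6, 112 and 111 CPM in newborns and 31.3, 80.9 and 45.6 CPM in adults. The ranges overlapped, and the log2 fold change of 0.69 ± 0.31 was not called (adjusted p = 0.0967). It was 0.32 in batch 1 and 1.34 in batch 2, where adult M-MDSC is 1 library. Without adult M-MDSC replicate 3 it was 1.23 (adjusted p = 0.00632), and without newborn M-MDSC replicate 2 it was 0.85 (adjusted p = 0.0244). The age effects pointed in opposite directions and their difference of 1.13 ± 0.39 was not called (adjusted p = 0.0516), although 8 of 34 alternatives called it. Batch 2 alone, with 1 adult M-MDSC library, was among these and gave a difference of 1.68. Batch 1 gave 0.78 (adjusted p = 0.512). The adjusted p was 0.0147 in DESeq2, 0.0313 with upper-quartile scaling, 0.0392 with DESeq2 size factors, 0.0456 with no batch term and 0.0481 with a filter of 1 CPM in 10 libraries. Leaving out the same libraries brought that difference to an adjusted p of 0.00473 and 0.0118.

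Hmgb3, an HMGB gene best known from embryos and blood stem cells, lies on the X chromosome (71555918 to 71560676, plus strand). It was at 24.6, 18.6, 24.3, 22.1 and 28.5 CPM in newborn PMN-MDSC and at 3.60 to 9.18 CPM, median 5.52 CPM, in adult PMN-MDSC. The groups were apart, with means of 23.6 ± 3.65 CPM in newborns and 5.86 ± 1.92 CPM in adults (SD, n = 5 and 6). In the fit of all 19 libraries the log2 fold change of 2.03 ± 0.87 was not called (adjusted p = 0.0628). The gene had 0 counts in newborn M-MDSC replicate 77 and adult M-MDSC replicate 28, which enter the shared spread. Without replicate 77 the adjusted p was 0.00646, without replicate 28 it was 0.0216, without both 5.29e-07, and with the PMN-MDSC libraries alone 1.88e-06. Hmgb3 was called in 7 of 35 alternatives and not in the rest.

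In M-MDSC Hmgb3 was at 23.2, 23.1, 37.5, 0 and 24.0 CPM in newborns and 6.03, 7.47 and 0 CPM in adults. A count of 0 in replicates 77 and 28 allows at most 0.141 and 0.173 CPM, far under the other libraries of their groups. The log2 fold change was 2.59 ± 1.23 (adjusted p = 0.123). Without replicate 77 the adjusted p was 0.0121, and without both libraries the log2 fold change was 1.95 (adjusted p = 5.33e-04). In M-MDSC 4 of 35 alternatives called it. Hmgb3 and Hmgn5 are X-linked, and Xist, the RNA of the inactive X, averaged 366 CPM in newborn and 1688 CPM in adult PMN-MDSC and 266 CPM in newborn and 860 CPM in adult M-MDSC.

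Set against Hmgb1 in the same library, Hmgb2 and Hmgb3 gained in newborn PMN-MDSC. The ranges of Hmgb2 and Hmgb3 were already apart there, so these ratios restate values given above and are not separate evidence. Hmgb3 itself was not called in the fit of all libraries. The Hmgb2 over Hmgb1 count ratio was 1.77 to 2.82 in newborn and 0.215 to 0.653 in adult PMN-MDSC, so the more counted gene of the pair switched with age in all 11 libraries. The log2 difference was 2.44 (exact two-sided permutation test, p = 0.00433; adjusted p = 0.00866), 2.52 in batch 1 and 2.43 in batch 2. Hmgb3 over Hmgb1 differed by 2.42 on the log2 scale, with the same exact p, 2.39 in batch 1 and 2.45 in batch 2. Without the batch 1 PMN-MDSC libraries the exact p of each was 0.1, again the smallest possible, and the calls are lost. In M-MDSC the Hmgb2 over Hmgb1 ratio ran from 1.02 to 5.10 in newborns and from 0.176 to 1.90 in adults, and the difference of 1.35 was not shown (exact p = 0.321, adjusted p = 0.386), with 2.01 in batch 1 and 0.19 in batch 2. Hmgb3 over Hmgb1 in M-MDSC gave 1.81 (exact p = 0.5) and changed sign, to -0.78, without adult replicate 28.

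Hmga1, which encodes the AT-hook proteins HMGA1a and HMGA1b of immature and dividing cells, lies on chromosome 17 (27556497 to 27563674, plus strand). In newborn M-MDSC it was at 260, 446, 232, 281 and 285 CPM and in adult M-MDSC at 94.3, 71.4 and 76.3 CPM. Every newborn library was more than double any adult one. The means were 301 ± 84.1 CPM in newborns and 80.7 ± 12.1 CPM in adults (SD, n = 5 and 3), a log2 fold change of 1.91 ± 0.25 (edgeR, adjusted p = 1.26e-05), 1.91 in batch 1 and 1.95 in batch 2.

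In PMN-MDSC the Hmga1 change was smaller. Newborn PMN-MDSC had 85.9, 82.2, 70.5, 72.7 and 69.5 CPM and adult PMN-MDSC 36.6 to 72.3 CPM with a median of 40.5 CPM. Adult replicate 1, at 72.3 CPM, lay inside the newborn range. The log2 fold change was 0.68 ± 0.19 (adjusted p = 0.00652), but 0.69 (adjusted p = 0.0730) without the batch 1 PMN-MDSC libraries, 0.73 (adjusted p = 0.128) in batch 1 alone and 0.45 (adjusted p = 0.0597) with upper-quartile scaling. The age effect was larger in M-MDSC by 1.22 ± 0.30 (adjusted p = 0.00805), 1.16 without the batch 1 PMN-MDSC libraries (adjusted p = 0.0716) and 0.90 in limma-voom (adjusted p = 0.0741). The difference was 1.18 in batch 1, not called there, and 1.24 in batch 2, where adult M-MDSC is 1 library. Hmga2, the fetal relative of Hmga1, was low, at 2.36 ± 1.01 CPM in newborn and 2.92 ± 1.02 CPM in adult PMN-MDSC (SD, n = 5 and 6).

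**Figure D3:**
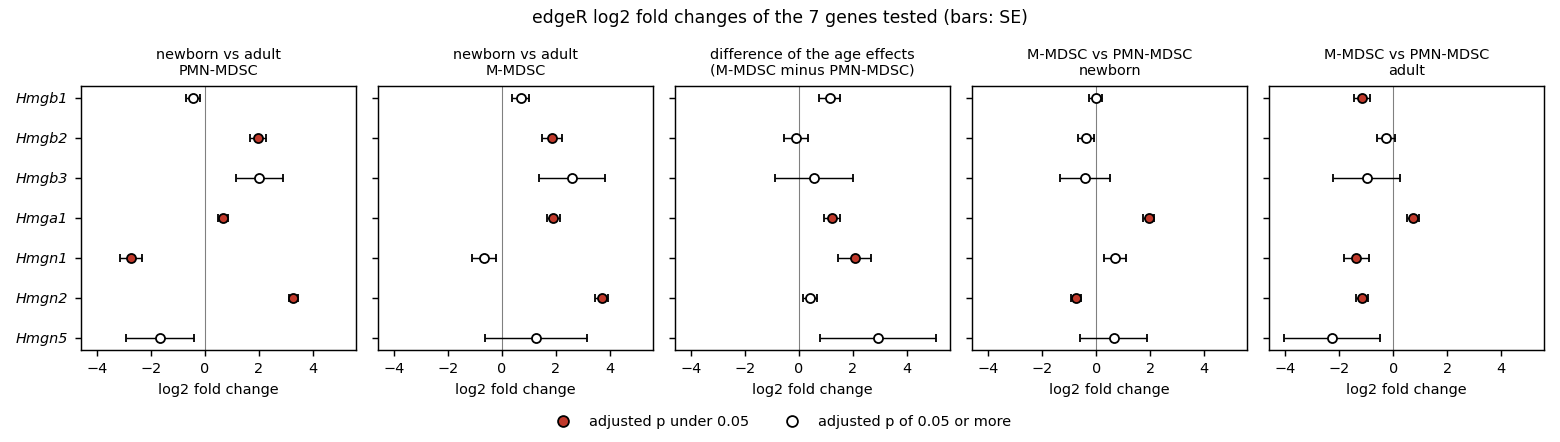
edgeR log2 fold changes (horizontal axis, bars are SE) of the 7 genes tested, for newborn against adult in each cell type, for the difference of these age effects and for M-MDSC against PMN-MDSC at each age. Filled points have an adjusted p under 0.05. Hmgn2 and Hmgb2 lie to the right in both age comparisons, and Hmgn1 lies to the left at -2.74 in PMN-MDSC.

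Between the cell types, Hmgn2 was lower and Hmga1 higher in M-MDSC at both ages, though the adult Hmga1 call was lost in 11 of 35 alternatives. In newborns Hmga1 was higher in M-MDSC by 1.95 ± 0.20 on the log2 scale (edgeR, adjusted p = 4.65e-07), at 301 CPM in M-MDSC and 76.2 CPM in PMN-MDSC. Hmgn2 was lower in M-MDSC by -0.75 ± 0.18 (adjusted p = 0.00207), with means of 909 CPM in M-MDSC and 1563 CPM in PMN-MDSC and no overlap. These were the 1 higher and 1 lower call among 7 members, against 18.7% of all genes called higher, 23.4% lower and 42% in either direction. Within batch 1 the Hmgn2 difference was -0.59 (adjusted p = 0.118) and within batch 2 -1.13 (adjusted p = 8.49e-04). Hmgn1 was not called (0.69 ± 0.42, adjusted p = 0.199) but was without newborn M-MDSC replicate 77 (1.09, adjusted p = 0.00526), and it had opposite signs in batch 1 (1.88) and batch 2 (-0.20).

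In adults 1 member was higher and 3 were lower in M-MDSC, against 16.7% and 12.5% of all genes, and 29.1% in either direction. Hmgn2 was lower by -1.16 ± 0.21 (adjusted p = 3.55e-04), at 70.1 CPM in M-MDSC and 159 CPM in PMN-MDSC, and was called in all 35 alternatives. Hmgb1 was lower by -1.16 ± 0.30 (adjusted p = 0.00804), at 52.6 CPM in M-MDSC and 121 CPM in PMN-MDSC. Hmgn1 was lower by -1.37 ± 0.45 (adjusted p = 0.0296), at 15.3 CPM in M-MDSC and 40.5 CPM in PMN-MDSC, and Hmga1 was higher by 0.73 ± 0.22 (adjusted p = 0.0190). The call of Hmgb1 was lost without adult M-MDSC replicate 28 (adjusted p = 0.0775) and without the batch 1 PMN-MDSC libraries (0.162). That of Hmgn1 was lost without adult PMN-MDSC replicate 2 or 3 (0.0512 or 0.0565), without adult M-MDSC replicate 1, 3 or 28 (0.0821, 0.0615 or 0.0527) and without the batch 1 PMN-MDSC libraries (0.114). That of Hmga1 was lost without adult PMN-MDSC replicate 2 (0.0608), without adult M-MDSC replicate 1 or 28 (0.0799 or 0.0847) and without the batch 1 PMN-MDSC libraries (0.126). Calls were also lost in other models. In limma-voom the adjusted p was 0.0740 for Hmgb1, 0.0989 for Hmgn1 and 0.0551 for Hmga1. With a batch coefficient per cell type it was 0.156 for Hmgn1 and 0.0693 for Hmga1. With the compared groups alone it was 0.0620 for Hmga1. Hmgn5 was not called (-2.28 ± 1.77, adjusted p = 0.354), although leaving out adult M-MDSC replicate 1, which removes all of that group's counts, gave an adjusted p of 0.0350.

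The order of the 4 groups differed from gene to gene. Hmgn2 ran from newborn PMN-MDSC through newborn M-MDSC and adult PMN-MDSC to adult M-MDSC, with no overlap between any neighbours. Hmgb2 was highest in newborn PMN-MDSC and newborn M-MDSC, which overlapped, and both lay above adult PMN-MDSC and adult M-MDSC, which also overlapped. Hmga1 was highest in newborn M-MDSC, apart from the other groups, among which adult M-MDSC overlapped with newborn PMN-MDSC and newborn with adult PMN-MDSC. Hmgn1 was highest in adult PMN-MDSC, apart from the overlapping rest. Neighbouring groups of Hmgb1, Hmgb3, Hmgn3 and Hmgn5 all overlapped.

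Per length of merged exons, Hmgn2 made up most of the summed HMG level in newborns. The 8 genes summed to 645 ± 16.8 CPM per kb in newborn and 133 ± 8.13 CPM per kb in adult PMN-MDSC (SD, n = 5 and 6), and to 521 ± 104 CPM per kb in newborn and 93.5 ± 9.01 CPM per kb in adult M-MDSC (SD, n = 5 and 3). The Hmgn2 share of this sum was 79.2 ± 1.77% in newborn and 39.0 ± 2.49% in adult PMN-MDSC, and 56.9 ± 4.01% in newborn and 24.4 ± 7.42% in adult M-MDSC. In adult M-MDSC the Hmga1 share of 40.8 ± 6.43% was the largest, above Hmgn2. Hmgn1 held 0.285 ± 0.136% in newborn and 9.50 ± 1.77% in adult PMN-MDSC. Hmgb1 ranked 2 in adult PMN-MDSC at 24.0 ± 4.43 CPM per kb and 4 in newborn PMN-MDSC at 18.1 ± 2.70 CPM per kb. A share falls when another gene rises, so these shares are not independent of each other.

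**Figure D4:**
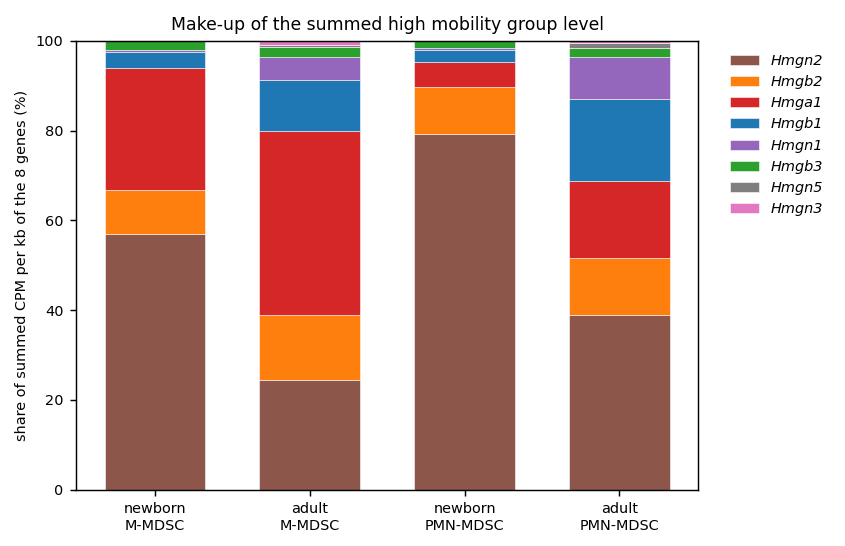
Share of each gene in the summed CPM per kb of the 8 genes (vertical axis, percent), as the mean over the libraries of newborn and adult M-MDSC and of newborn and adult PMN-MDSC. The Hmgn2 segment is 56.9% in newborn and 24.4% in adult M-MDSC and 79.2% in newborn and 39.0% in adult PMN-MDSC.

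Cell division genes and linker histones were mostly higher in newborns. Of 26 cell division genes, 24 were called higher in newborn PMN-MDSC and 25 in newborn M-MDSC, with median log2 fold changes of 3.03 and 3.42. Over all genes 27.1% were called higher in newborn PMN-MDSC and 15.9% in newborn M-MDSC. Aurka, a mitotic kinase, was at 135 CPM in newborn and 11.9 CPM in adult M-MDSC (3.47 ± 0.24, adjusted p = 1.99e-08). Rrm2, which makes DNA building blocks, rose in newborn PMN-MDSC (3.53 ± 0.22, adjusted p = 4.02e-10). Ccna2, the S and G2 phase cyclin, was at 210 CPM in newborn and 6.96 CPM in adult M-MDSC (4.88 ± 0.33, adjusted p = 1.21e-08). All 8 erythroid and 2 of 4 progenitor markers were also called higher in newborn PMN-MDSC, and their part was not tested. All 6 linker histone genes tested, the competitors of HMGN proteins on the nucleosome, were called higher in newborns in both cell types, against the same shares of all genes, with medians of 2.86 and 2.84. H1f0, the linker histone typical of non-dividing cells, was at 91.2 CPM in newborn and 3.33 CPM in adult PMN-MDSC (4.72 ± 0.21, adjusted p = 6.92e-12). Its age effect was smaller in M-MDSC by -2.84 ± 0.29 (adjusted p = 3.05e-06).

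Of 14 genes of the nuclear lamina and of neutrophil chromatin, 10 were higher and 2 lower in newborn PMN-MDSC, and 9 higher and 2 lower in newborn M-MDSC. Of all genes, 27.1% were higher and 20.5% lower in newborn PMN-MDSC, and 15.9% higher and 14.3% lower in newborn M-MDSC. Syne1, a nuclear envelope anchor, was at 643 CPM in newborn and 33.0 CPM in adult PMN-MDSC (4.28 ± 0.17, adjusted p = 2.45e-12). Lbr, the lamin B receptor needed for the lobed neutrophil nucleus, was at 826 CPM in newborn and 279 CPM in adult PMN-MDSC (1.55 ± 0.11, adjusted p = 2.61e-09) and at 517 CPM in newborn and 182 CPM in adult M-MDSC (1.49 ± 0.14, adjusted p = 5.19e-07). Lmnb2, a B-type lamin, rose by 2.94 ± 0.33 in newborn M-MDSC (adjusted p = 2.28e-06).

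Genes of the SET complex, of which HMGB2 is a known subunit, and histone chaperones were counted together. In newborn PMN-MDSC 5 of 15 were higher and 6 lower, with a median of -0.10, against 27.1% higher and 20.5% lower over all genes. In newborn M-MDSC 9 of 15 were higher, with a median of 0.74, against 15.9% of all genes. For 9 of 15 the age effect itself was called higher in M-MDSC, against 6.61% of all genes. Chaf1a, a chaperone that loads histones behind the replication fork, rose in newborns in PMN-MDSC (2.53 ± 0.19, adjusted p = 2.62e-09) and in M-MDSC (3.57 ± 0.25, adjusted p = 1.99e-08). Npm1, a nucleolar chaperone, fell in newborn PMN-MDSC, at 42.7 CPM against 158 CPM in adult PMN-MDSC (-1.87 ± 0.24, adjusted p = 3.75e-06). Set, the oncoprotein that names the complex and is named here after its values were seen, was lower in newborn PMN-MDSC (-0.71 ± 0.16, adjusted p = 0.00154) and higher in newborn M-MDSC (0.55 ± 0.20, adjusted p = 0.0449), a difference of 1.25 ± 0.26 (adjusted p = 0.00209).

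Receptors and partners of extracellular HMGB1 were mostly lower in newborn PMN-MDSC, and fewer were called in M-MDSC. Of 16 tested, 1 was higher and 11 lower in newborn PMN-MDSC (median -1.15), and 7 were lower in newborn M-MDSC (median -0.86), against 20.5% and 14.3% of all genes called lower. Tlr9, which senses DNA that HMGB1 can carry, was at 14.2 CPM in newborn and 108 CPM in adult PMN-MDSC (-2.86 ± 0.27, adjusted p = 8.53e-08). Il1b, the interleukin that forms complexes with HMGB1, was at 146 CPM in newborn and 2213 CPM in adult PMN-MDSC (-3.90 ± 0.42, adjusted p = 4.38e-07). Thbd, thrombomodulin, which binds HMGB1, fell in newborn PMN-MDSC (-2.41 ± 0.22, adjusted p = 3.67e-08) and was not called in M-MDSC, and the difference of 2.03 ± 0.31 was called (adjusted p = 1.84e-04). Siglecg, an inhibitory partner of the CD24 and HMGB1 complex, also fell in newborn PMN-MDSC (-2.72 ± 0.31, adjusted p = 7.92e-07). B cells express Tlr9 and Siglecg too, B cell markers were lower in the same libraries, and their part was not tested. Tlr4 and Tlr2, receptors of HMGB1 named after their values were seen, were lower in newborn PMN-MDSC (-0.80 and -1.35, adjusted p = 0.0109 and 0.0179), and Ager was not called.

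Enzymes that modify or export HMG proteins went both ways: 6 of 18 were higher and 6 lower in newborn PMN-MDSC, against 27.1% and 20.5% of all genes, and 4 higher and 2 lower in newborn M-MDSC, against 15.9% and 14.3%. In M-MDSC these shares are near those of all genes. Parp1, which attaches ADP-ribose to HMGB1, was at 39.9 CPM in newborn and 159 CPM in adult PMN-MDSC (-1.96 ± 0.18, adjusted p = 4.36e-08), and its age effect differed in M-MDSC by 2.23 ± 0.28 (adjusted p = 2.36e-05). Csnk2b, the regulatory subunit of the casein kinase that phosphorylates HMGA1, rose in newborn PMN-MDSC (1.71 ± 0.19, adjusted p = 5.95e-07) and newborn M-MDSC (0.96 ± 0.24, adjusted p = 0.00462). Among 23 tested genes of the wider HMG family, 5 were higher and 4 lower in newborn PMN-MDSC, and 4 higher and 4 lower in newborn M-MDSC, with medians of -0.15 and -0.10. These are near the shares of all genes given above, and below them in PMN-MDSC. The 4 lower in M-MDSC were Tcf7, with 2.14 CPM in newborn and 56.5 CPM in adult M-MDSC, and Lef1, Tox and Bbx, the last 3 named after their values were seen. Tcf7, Lef1 and Tox are transcription factors of T cells, all 4 T cell markers were lower in the same newborn libraries, and their part was not tested. Sox13, an HMG-box transcription factor, was at 23.8 CPM in newborn and 0.676 CPM in adult PMN-MDSC (5.17 ± 0.43, adjusted p = 4.37e-08), and at 8.22 CPM in newborn M-MDSC with 0 counts in adult M-MDSC. Ssrp1, the HMG-box subunit of the FACT chaperone, was at 223 CPM in newborn and 91.3 CPM in adult M-MDSC (1.28 ± 0.20, adjusted p = 1.04e-04).

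**Figure D5:**
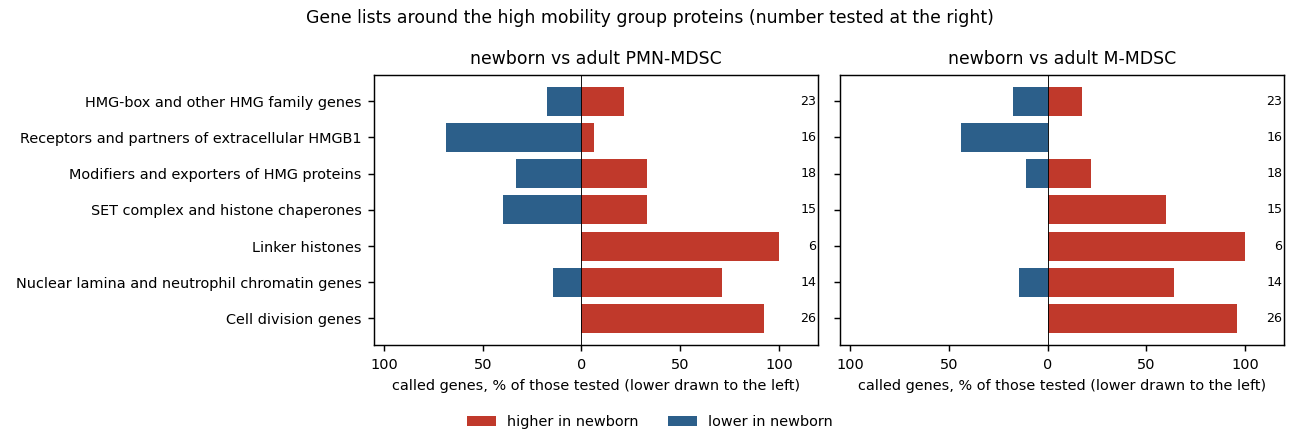
Percent of the tested genes of each list called higher (to the right) or lower (to the left) in newborn against adult PMN-MDSC and in newborn against adult M-MDSC, by edgeR at an adjusted p under 0.05. Numbers at the right count the genes tested. Linker histones and cell division genes lie to the right in both panels, and receptors of extracellular HMGB1 lie mostly to the left.

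The genes whose pattern over the 19 libraries was most like each member were found among 9510 genes by the mean absolute difference in log2 CPM, each gene centred on its own mean. Nearest to Hmgn2 were Stil (0.32), Arhgap19 (0.33) and Rab44 (0.33). Nearest to Hmgb2 were Alas1 (0.35), Atp8b4 (0.37) and Pkm (0.37). Hmga1 was nearest to Fam96a, Idh2 and Siva1 (all 0.35), and Hmgb1 to Pds5b (0.20), Zfr (0.21) and Synj2bp (0.22). Hmgn1 was nearest to Cd180 (0.41), Bin1 (0.46) and Slc4a7 (0.49), and Cd180, a receptor of B and myeloid cells, was at 24.9 CPM in newborn and 237 CPM in adult PMN-MDSC. Hmgb3 was nearest to Thyn1 (0.62), Coq6 (0.67) and Dgcr6 (0.69), and Hmgn5 to Ell2 (0.87), Bmi1 (0.98) and Gpr65 (0.99), both looser than for the other members. These distances describe likeness over libraries that share groups and batches.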

How the data were processed

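Mouse spleen RNA was read as 50 bp single-end reads from total-RNA libraries, per the labels' protocols. The authors deposited estimated counts per gene as whole numbers, not normalized. RSEM 1.2.3, the build mm10 and, in no stated role, DESeq2 appear in the submitters' processing notes. The aligner and the annotation were not given in the sources used here. Estimated counts divide reads among near-identical copies, so members with copies elsewhere are uncertain. Whether strand was used in counting is not stated.

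The members and gene lists were chosen with earlier results of these data known, and named list genes are at most 4 called ones by smallest adjusted p in each age comparison unless said otherwise. Counts (rounded; no value changed) were tested with edgeR 4.0.16 in R 4.3.3: TMM, edgeR's filter by group, 1 coefficient per group and for batch, 19 libraries, 12943 genes, 14 residual degrees of freedom, Benjamini-Hochberg adjustment over all genes. The SE of a log2 fold change is its size over the square root of F. CPM are counts over the TMM-scaled library size. The script was tested on simulated data. Genes most like a member needed at least 10 CPM in the highest group and left out clone and predicted gene names. Library resemblance used genes of at least 10 CPM on average. Gene coordinates and lengths came from GENCODE M21 on GRCm38, and promoters from RefSeq on GRCm38.p6. Ratios used 0.5 added to counts. Alternatives covered batch, samples, scaling, filters, DESeq2 1.42.0, limma 3.58.1 voom and each library left out; 2 were added after seeing the data: summing members with their named copies, and leaving out the 2 M-MDSC libraries with under 12000 genes. Whether replicate numbers shared within batch 1 pair libraries was not settled, and the main fit did not pair them.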

Additional observations from a re-analysis of the deposited data

Results flagged for a closer look

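In newborn M-MDSC, 3 values lay far from the other 4 libraries of the group by Dixon's test, out of 32 sets of values examined, where chance gives about 1 in 20. They were Hmgn5 at 4.91 CPM in replicate 79, Hmga1 at 446 CPM in replicate 2, and the Hmgb3 over Hmgb1 log2 ratio of -12.22 in replicate 77, which had 0 Hmgb3 counts.

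For 2 members the age effect differed between M-MDSC and PMN-MDSC in edgeR's test of that difference: Hmgn1 by 2.07 and Hmga1 by 1.22 on the log2 scale, both in the direction of a higher newborn-over-adult value in M-MDSC.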

How the results depend on the processing

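Hmgn2 and Hmgb2 kept their age calls in every alternative run in both cell types, as did Hmgn1 in PMN-MDSC and Hmga1 in M-MDSC. Whether replicate numbers shared in batch 1 pair the libraries was not settled (correlations of deviations -0.05 to 0.18 for same-numbered and -0.18 to 0.08 for other pairs). The highest were adult PMN-MDSC with adult M-MDSC of the same number, 0.176 for replicate 1 and 0.182 for replicate 3. Newborn PMN-MDSC with newborn M-MDSC gave -0.047 for replicate 2 and 0.0014 for replicate 3. Groups of 2 libraries have mirrored deviations, so these values cannot exclude pairing. With the replicate block in batch 1, genes called numbered 3663 for age in PMN-MDSC, 609 for the difference of the age effects, 3615 between cell types in newborns and 1588 in adults, with 1, 2 and 0 members called higher in the last 3 and 0 lower in newborns. Batch 1 alone gave 3760, 408, 3231 and 1368 genes, with the same numbers of members called; batch 2 alone gave 4254 genes for the difference and 6457 between adult cell types, with 1 and 0 members higher. The compared groups alone gave 9548 genes in PMN-MDSC and 1267 in M-MDSC, limma-voom 2315 in M-MDSC and 1820 between adult cell types, and leaving out the batch 1 PMN-MDSC libraries 3740 in PMN-MDSC, 968 for the difference and 2407 between adult cell types.

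Members called lower in newborn PMN-MDSC numbered 2 with the compared groups alone, DESeq2 size factors, upper-quartile scaling, DESeq2 and limma-voom. For the difference, 1 member was higher in limma-voom and 0 without the batch 1 PMN-MDSC libraries. Between newborn cell types limma-voom called 2 higher and 2 lower, and leaving out the 2 M-MDSC libraries of few genes gave 2 higher. Between adult cell types 0 were higher with a batch coefficient per cell type, the compared groups alone, limma-voom, without the batch 1 PMN-MDSC libraries and without the 2 libraries of few genes, and 1 was lower in limma-voom and without the batch 1 PMN-MDSC libraries. Without 1 library in turn, adult cell types gave 2250 to 5036 genes, 0 to 1 members higher and 1 to 3 lower, newborn cell types 1 to 2 higher, and the difference 1 to 3 higher.

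Of values not called in the fit of all libraries, some changed sign. Between newborn cell types, Hmgb3 gave 0.85 (batch coefficient per cell type), 0.38 (batch 1), 0.44 (replicate block) and 0.22 (without the 2 libraries of few genes), and -0.93 to 0.050 without 1 library in turn. Hmgn5 gave -0.31 (batch coefficient per cell type) and -0.25 (limma-voom), Hmgn1 -0.20 (batch 2), and Hmgb1 0.083 (compared groups alone), 0.12 (batch 2), 0.12 (upper-quartile), 0.00036 (limma-voom) and -0.15 to 0.074 without 1 library. Between adult cell types Hmgb3 gave 0.35 (batch 1), 0.39 (replicate block), 0.26 (without the 2 libraries of few genes) and -1.92 to 0.028 without 1 library, and Hmgb2 -0.66 to 0.091. For the difference, Hmgb2 gave 0.084 (batch 1), 0.055 (upper-quartile), 0.78 (limma-voom), 0.23 (without the 2 libraries of few genes) and -0.53 to 0.20 without 1 library, Hmgb3 -0.042 (without the 2 libraries) and -0.30 to 1.49, and Hmgn2 -0.24 (batch 2). The log2 ratio of Hmgn2 over Hmgn1 in PMN-MDSC was 6.90 in batch 1, and that of Hmgb3 over Hmgb1 in M-MDSC ran from -0.78 (without adult replicate 28) to 3.95 (without newborn replicate 77). With the longest transcript as length, Hmgb1 ranked 3 and Hmgb2 ranked 4 in adult M-MDSC. Apart from fewer libraries or genes tested, the cause of these changes was not tested. Depth limits Hmgn3 and Hmgn5 most, where a count of 0 in batch 1 allows up to 3.29 CPM.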
